A study of Homo sapiens with 32 samples.

Results

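Genes of the chromatin machinery were followed in HEK293 cells, a long-established human line grown from embryonic kidney, after incubation with 4-thiouracil for 0, 5, 15 or 30 min. The genes were taken by name: symbols beginning with CHD, SMARC, ARID, INO80, BRD, KDM, SETD, EHMT, KAT or HDAC as family names, with at least 50 counts over the 32 libraries, and with KDM5D left out. Of 101 matching names 96 had a count and 87 met the minimum, of 32738 gene entries in the table. HDAC4 and HDAC5, with 67 counts each, stood just inside the minimum, and KAT8 with 49, INO80C with 48 and KDM6B with 44 stood just outside. The 87 were 29 remodelers, 7 readers, 20 writers, 24 erasers, 5 other ARID genes and the antisense entries SETD5-AS1 and KDM4A-AS1. The classes follow the gene names, and some members of a class act on other proteins than histones.

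Remodelers are ATPases and their partner subunits that slide, evict or exchange nucleosomes, and each family (SWI/SNF, CHD, ISWI, INO80) works in its own set of complexes. Writers add acetyl or methyl groups to histone tails, erasers take them off, and readers of the bromodomain group bind acetylated tails. Many of these proteins are shared by all cell types, and several families hold related genes that take the same place in a complex one at a time.

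4-Thiouracil is a thiol-bearing uracil used to label RNA made during the incubation. Per the labels, polyadenylated RNA of Hek293 cells was used at each time, with 2 cultures (biological replicates) per time. The sample titles begin with TTSeq. The labels name no genotype, clone or agent other than 4-thiouracil. They say neither what the 0 min cells were given nor whether labelled RNA was isolated before counting. A level is therefore a share of the RNA counted. A change of expression from 0 min cannot be told apart from a difference in which RNA was counted. In such bulk samples fewer cells and less RNA per cell cannot be told apart either.

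The 4 libraries of a culture were summed, giving 776871 to 1396056 counts in the 8 cultures. In CPM, which sets every culture to the same total, 5 HEK293 markers summed to between 252 and 384 in the 8 cultures. VIM made up 231 to 346 of this, KRT8, KRT18 and NEFM had medians of 9.45, 6.34 and 4.16 CPM, and INA had a median of 0. A further 10 markers of blood, liver, fibroblast, keratinocyte and endothelial cells summed to between 0 and 18.6 CPM, with APOA1 the highest (up to 17.9) and 7 of the 10 at 0 in every library. Libraries made from the same cDNA differed by less than counting error, and libraries from different cDNA of a culture by more. Scaled CPM denotes CPM after TMM scaling, under which most genes are taken to be level between cultures. Every adjusted p is from edgeR's quasi-likelihood F test over all 10439 genes tested, among them the 87 members, and a gene was called higher or lower at an adjusted p under 0.05. A fold change is given on the log2 scale with its standard error, and every level is followed by its culture values in the order culture 1, culture 2. An exact permutation test of 2 cultures against 2 gives p = 0.333 at the least, so the model across genes was used, and its p-values measure the spread between these cultures.

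RefSeq promoters (GRCh38.p14) were found for 76 of the 87 members. Those not found included SMARCC2, ARID2, SETD1B, ARID3B, HDAC5, ARID3A, CHD6, SMARCC1, KAT6A and CHD7. The 150 bases before the annotated start are shown for 5 genes whose time courses are described in detail: BRD2, which was called higher at 30 min and, under TMM scaling, at no earlier time, ARID1B, which had the largest increase of a member with counts at 0 min, SMARCA5, which under TMM scaling was called higher at 5 min alone, and the neighbouring pair SETD5 and SETD5-AS1. RefSeq lists the last as THUMPD3-AS1, with SETD5-AS1 as a synonym. Each is written 5′ to 3′ on the strand of its gene, and capitals mark the GC box (GGGCGG) and the CCAAT box (CCAAT) on either strand.
BRD2, chr6:32972934-32973083, plus strand: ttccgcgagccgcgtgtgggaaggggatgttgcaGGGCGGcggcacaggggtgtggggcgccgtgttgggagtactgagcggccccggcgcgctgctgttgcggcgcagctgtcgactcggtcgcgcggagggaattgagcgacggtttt
ARID1B, chr6:156777228-156777377, plus strand: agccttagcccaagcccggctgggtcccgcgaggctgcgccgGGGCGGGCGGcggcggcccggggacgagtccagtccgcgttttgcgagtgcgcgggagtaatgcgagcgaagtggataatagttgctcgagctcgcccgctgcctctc
SMARCA5, chr4:143513552-143513701, plus strand: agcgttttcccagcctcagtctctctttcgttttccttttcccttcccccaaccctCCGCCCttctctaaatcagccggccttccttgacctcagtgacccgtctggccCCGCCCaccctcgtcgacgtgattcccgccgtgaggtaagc
SETD5, chr3:9397465-9397614, plus strand: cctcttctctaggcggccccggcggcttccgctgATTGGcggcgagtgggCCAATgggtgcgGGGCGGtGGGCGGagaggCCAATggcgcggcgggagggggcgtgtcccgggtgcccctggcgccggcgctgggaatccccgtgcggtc
SETD5-AS1, chr3:9396624-9396773, minus strand: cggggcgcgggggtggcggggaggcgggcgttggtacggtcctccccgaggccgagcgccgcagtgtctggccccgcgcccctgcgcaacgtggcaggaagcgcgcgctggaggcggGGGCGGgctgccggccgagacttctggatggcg

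The BRD2 stretch holds 1 GC box, from base 116 to base 111 before the start. The ARID1B stretch holds 2 that overlap, at bases 108 to 103 and 104 to 99 before the start, and SMARCA5 holds 2, at bases 94 to 89 and 41 to 36. In SETD5 there are 3 CCAAT boxes and 2 GC boxes, and in SETD5-AS1 there is 1 GC box at bases 33 to 28. The starts of SETD5 and SETD5-AS1 lie 992 bases apart and point away from each other. SETD5-AS1 is a long non-coding RNA read from the strand opposite to SETD5. From these starts the pair does not overlap. Whether counting was stranded is not stated in the labels used here. Reads of SETD5-AS1 or KDM4A-AS1 can therefore not be told apart from those of any gene that the entry overlaps on the other strand.

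Over the 250 bases before the start, the members' promoters were searched on both strands for motifs of well-known promoter-binding factors. A GC box was in 47 of 76 (61.84%), against 66.79% of 8336 promoters of genes tested, and a CCAAT box in 24 (31.58%), against 35.62%. The E-box CACGTG was in 7 (9.21% against 9.12%), the ETS motif CCGGAAGT in 5 (6.58% against 7.85%), the NRF1 motif in 4 (5.26% against 10.95%) and the AP-1 motif TGACTCA in 4 (5.26% against 2.47%). The cAMP response element TGACGTCA (3.31% of promoters of genes tested), the TATA box TATAAA (5.57%), the YY1 motif AAGATGGCG (1.16%), the ZBTB33 motif (0.89%) and the CArG box of serum response factor (0.94%) were in none of the 76. The median GC content of the members' windows was 65.2%, against 64.8% for the genes tested. A match describes these letters only.

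Members made up 0.284% and 0.249% of all counts at 0 min and between 0.856% and 1.03% at the 3 later times. At 5 min 42 of the 87 members rose and 6 fell against 0 min, with a median log2 change of 0.80. The background was 28.7% of all genes tested called higher and 26% called lower, with a median of 0.10 (log2). At 15 min 39 rose and 5 fell (background 29.8% and 24.6%), and at 30 min 40 rose and 7 fell (background 32.1% and 23.8%), with member medians of 0.74 and 0.78 and all-gene medians of 0.19 and 0.35. The 3 comparisons share the 0 min cultures and are not independent of each other. Members thus passed the test upward in a larger share, and downward in a smaller share, than the genes tested as a whole, in the same direction under the other scalings tried.

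The same members carried most of these calls. Of the 87, 35 were called higher at all 3 later times, 4 (BRD8, HDAC1, KDM5B and SETD3) were called lower at all 3, 16 were called at 1 or 2 of them, 32 at none, and 0 were called in both directions. The share of all genes tested with each pattern was not computed, and the shared 0 min cultures make repeated calls more likely. The mean level was highest at 5 min in 35 members (40.23%), at 30 min in 22 (25.29%), at 15 min in 17 (19.54%) and at 0 min in 13 (14.94%). Among all genes tested the highest mean was at 5 min in 25.43%, at 30 min in 22.74%, at 15 min in 15.15% and at 0 min in 36.67%. The plot of all members by culture shows both patterns.

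**Figure D1:**
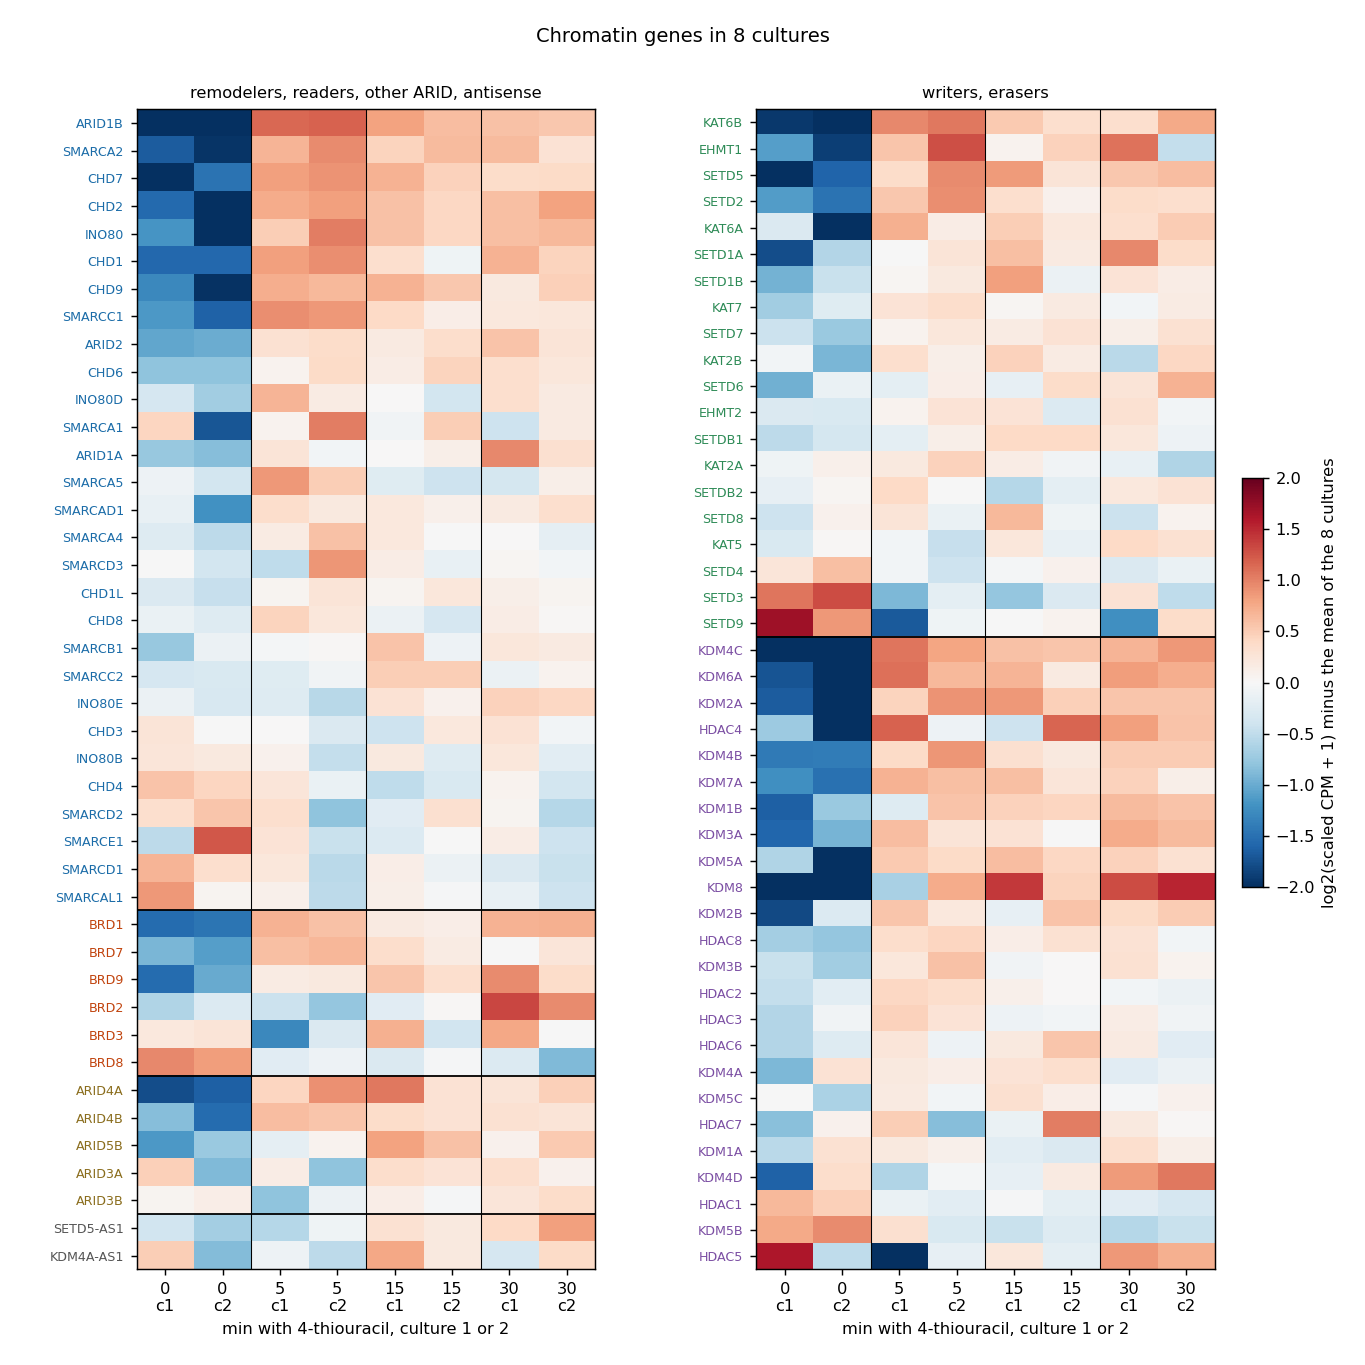
Each row is a gene (1 reader is not shown) and each column a culture. Colour gives log2(scaled CPM + 1) minus the gene's mean over the 8 cultures, capped at 2 either way, with genes ordered within a class by their change from 0 to 5 min. The 0 min columns are dark blue for ARID1B, KDM4C and KAT6B, which were called higher at all 3 later times, and red for BRD8, HDAC1, KDM5B and SETD3.

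The size of these counts depended on how cultures were scaled. With library totals as the only scaling, 62 members were called higher and 1 lower at 5 min, and 66 and 1 at 30 min. That scaling moved the median over all genes to 0.83 at 5 min and 1.22 at 30 min, and the members' median to 1.53 and 1.65, so the members stood above the genes tested by similar amounts. Every gene direction from 0 min is therefore relative to the bulk of genes.

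From 5 to 30 min 2 members rose, SETD5-AS1 and BRD2, and 3 fell, SMARCA5, SMARCC1 and ARID1B (background 5.88% higher and 6.52% lower). The member median was −0.06, against −0.03 over all genes. In the single steps, 0 members were called higher and 2 lower from 5 to 15 min, SMARCA5 and CHD1 (background 1.03% and 0.517%), and 1 was called higher, BRD2, and 0 lower from 15 to 30 min (background 2.26% and 2.78%). The counts of calls rest on few genes: without culture 2 at 30 min 1 member was called higher and 1 lower from 5 to 30 min, and without culture 1 at 5 min or culture 1 at 30 min 0 were called lower.

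**Figure D2:**
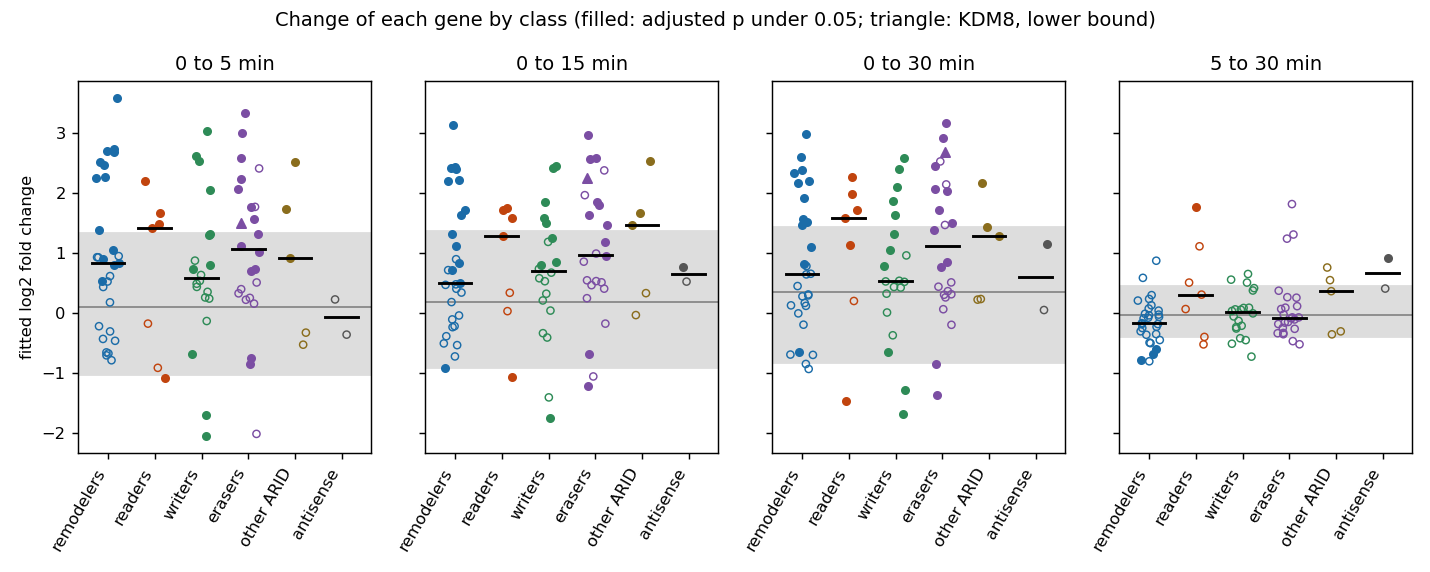
Each point is a gene's fitted log2 fold change between 2 times, by class, filled where the adjusted p was under 0.05. Black bars are class medians, and the grey band and line give the middle 50% and the median of all 10439 genes tested. KDM8, at 0 counts at 0 min, is drawn as a triangle at its lower bound in the 3 comparisons with 0 min. Most filled points lie above 0 in the 3 comparisons with 0 min, and 5 points are filled from 5 to 30 min.

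Remodelers, writers and erasers were set side by side as shares of the members' own counts, which no scaling between cultures changes. Remodelers held 41.9% and 38.2% of the members' counts at 0 min, 54.0% and 52.8% at 5 min, 49.2% and 48.9% at 15 min, and 46.2% and 46.8% at 30 min. The share was lowest in both 0 min cultures and highest in both 5 min cultures, with no overlap between any pair of times. The share of erasers went the other way, from 22.5% and 25.4% at 0 min to 19.4% and 18.3% at 5 min, and stayed between 17.5% and 19.4% after that. Their summed CPM still rose, to 2.98 times the 0 min mean at 5 min, against 3.78 times for all members. The smaller share is thus a smaller rise and not a fall of the erasers' counts. Writers held 15.6% and 16.9% at 0 min and between 13.9% and 15.5% at the later times. Readers held 10.3% and 11.4% at 0 min, 6.04% and 6.06% at 5 min, 7.33% and 7.78% at 15 min, and 12.2% and 9.94% at 30 min.

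A few much-counted genes weighed heavily in these shares. CHD9, ARID1B, SMARCC1 and CHD2, the 4 most counted members and all remodelers, together took 12.8% and 9.05% of the members' counts at 0 min and 30.7% and 29.7% at 5 min. Without them, in class and total alike, remodelers held 33.4% and 32.1% at 0 min, 33.7% and 32.9% at 5 min and 30.2% and 28.9% at 30 min. The larger remodeler share at 5 min was thus carried by these 4 genes. Eraser and writer shares were not recomputed without them, so their lower shares at 5 min cannot be set apart from the rise of these 4. BRD2 made up 30.7% and 23.5% of the readers' counts at 5 min and 55.1% and 52.1% at 30 min. Without it readers held 4.27% and 4.70% of the members' counts at 5 min and 5.89% and 5.02% at 30 min.

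**Figure D3:**
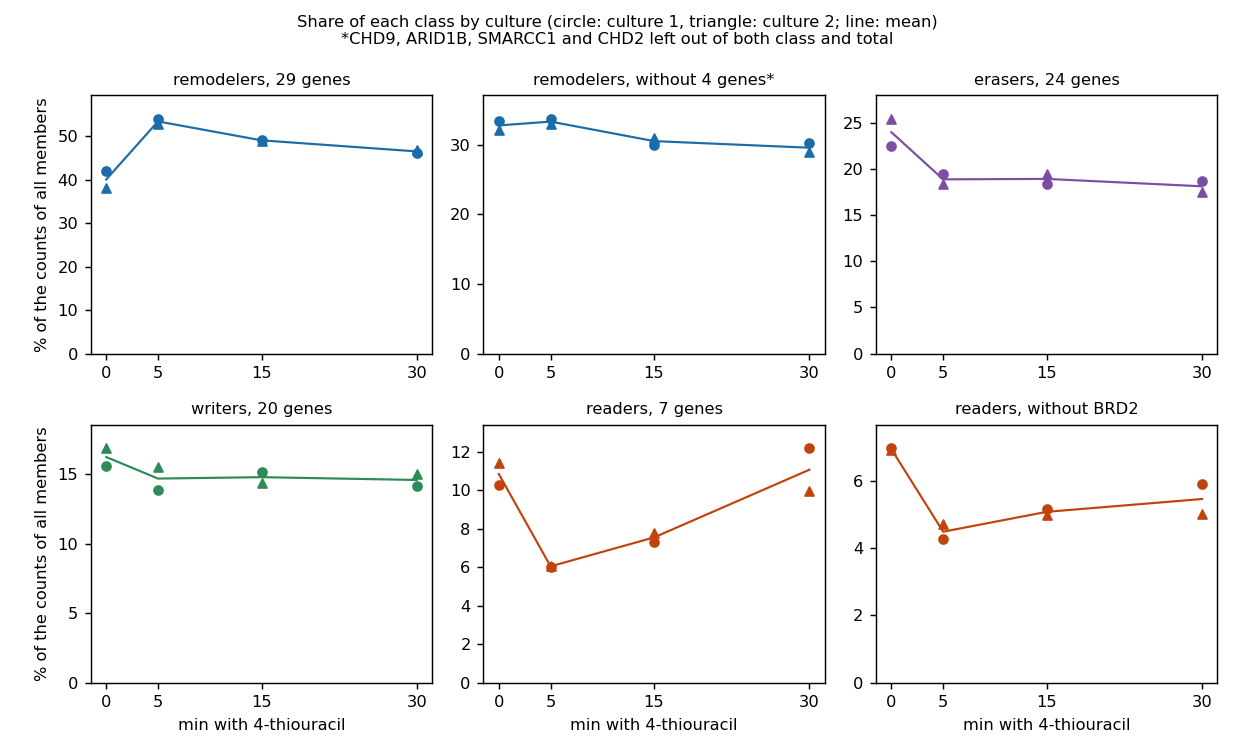
Share of the members' counts, in percent, held by each class in each culture against time with 4-thiouracil. Circles and triangles are cultures 1 and 2 and lines join the means of 2. Remodelers peak at 53.4% (mean) at 5 min with all genes and stay between 28.9% and 33.7% without CHD9, ARID1B, SMARCC1 and CHD2, and readers without BRD2 stay between 4.27% and 6.97%.

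By count of genes the classes differed less. At 5 min 14 of 29 remodelers rose and 0 fell (median change 0.83), 4 of 7 readers rose and 1 fell (1.41), 8 of 20 writers rose and 3 fell (0.59), and 13 of 24 erasers rose and 2 fell (1.07). At 30 min the counts were 12 and 1 for remodelers, 5 and 1 for readers, 8 and 3 for writers, and 11 and 2 for erasers. Of all genes tested 28.7% rose and 26% fell at 5 min, and 32.1% rose and 23.8% fell at 30 min. Differences between the classes were not tested. By family at 5 min, 6 of 9 CHD genes and 10 of 16 KDM genes rose, as did 5 of 13 SMARC, 4 of 12 SETD, 3 of 8 HDAC, 3 of 6 KAT and 1 of 4 INO80 genes, against 28.7% of all genes tested. In these families 3 SETD, 1 KDM and 1 HDAC gene fell and 0 of the others, against 26% of all genes tested.

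Among the remodelers, the SWI/SNF subunits changed unevenly. ARID1B, a DNA-binding subunit of the BAF form of SWI/SNF, stood at 76.1 and 60.2 scaled CPM at 0 min, 817 and 836 at 5 min, 647 and 564 at 15 min, and 555 and 537 at 30 min. All 6 later values lay above both 0 min values, and the 5 min values above all others. The log2 change was 3.58 ± 0.21 (SE) at 5 min (adjusted p = 1.5e-14), 3.14 at 15 min and 2.99 at 30 min. From 5 to 30 min ARID1B fell by 0.60 on the log2 scale (adjusted p = 0.017). Leaving out any 1 of the 4 cultures at those times kept the change between −0.62 and −0.57 and ended the call, with an adjusted p from 0.0673 to 0.17.

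ARID1A, which takes the place of ARID1B in other BAF complexes, was counted far less and changed less. It stood at 18.1 and 17.0 scaled CPM at 0 min, 37.8 and 30.4 at 5 min, 31.7 and 34.2 at 15 min, and 61.9 and 39.3 at 30 min. Only the 30 min change passed the test (log2 1.52 ± 0.38, adjusted p = 0.000971). At 5 min the value was 0.93 with an adjusted p of 0.052, and 0.95 and called with the cultures blocked by number. With library totals alone the 5 and 15 min changes were called (1.66 and 1.67), and the 15 min change also without either 5 min culture (0.93 in each case). ARID2, the matching subunit of the PBAF form, rose at all 3 times (1.39, 1.31 and 1.47). Within each culture the counts of ARID1B were 4.20 and 3.55 times those of ARID1A at 0 min, 21.6 and 27.5 times at 5 min, and 8.97 and 13.6 times at 30 min.

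The ATPases and scaffolds of SWI/SNF went the same way as the ARID subunits in part. SMARCA2 (BRM) and SMARCA4 (BRG1) are alternative motor subunits. SMARCA2 stood at 9.67 and 7.72 scaled CPM at 0 min, 53.1 and 64.3 at 5 min, 45.2 and 51.3 at 15 min, and 51.6 and 40.6 at 30 min. Its change was 2.74 ± 0.41 at 5 min (adjusted p = 7.46e-07), and the 6 later values all lay above the 0 min values. SMARCA4 stood at 54.4 and 44.8 at 0 min, 73.2 and 98.2 at 5 min, 75.0 and 64.3 at 15 min, and 65.5 and 57.2 at 30 min, without overlap between 0 min and any later time. Only its 5 min change passed the test (0.80 ± 0.28, adjusted p = 0.0149), and it no longer did so without culture 2 at 0 min (0.70) or culture 2 at 5 min (0.57, adjusted p = 0.187), or with DESeq2 (0.76, adjusted p = 0.0756). With library totals alone it was called at 15 min (1.25) and 30 min (1.17) too. The ratio of SMARCA2 to SMARCA4 counts was 0.178 and 0.172 at 0 min and between 0.603 and 0.798 in the 6 later cultures.

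SMARCC1, a scaffold subunit, stood at 169 and 122 scaled CPM at 0 min, 714 and 687 at 5 min, 497 and 410 at 15 min, and 435 and 438 at 30 min. It rose by 2.25 ± 0.20 at 5 min (adjusted p = 2.07e-11) and fell by 0.68 on the log2 scale from 5 to 30 min (adjusted p = 0.00836). The second of these calls was lost without culture 1 at 5 min (−0.66), culture 1 at 30 min (−0.68) or culture 2 at 30 min (−0.69), with an adjusted p between 0.0524 and 0.109. SMARCC2, the relative of SMARCC1, was named here after its values were seen. It was called higher at 15 min alone (0.83 ± 0.28, adjusted p = 0.0134), with 0.18 at 5 min and 0.31 at 30 min. Of the smaller SWI/SNF subunits, SMARCB1, SMARCE1, SMARCD1, SMARCD2 and SMARCD3 were called in neither direction at any time, with values from −0.93 to 0.72.

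Of the ISWI motors, SMARCA5 passed the test at 5 min and SMARCA1 did not. SMARCA5 (SNF2H), the ATPase of most ISWI complexes, stood at 79.8 and 66.4 scaled CPM at 0 min, 157 and 121 at 5 min, 72.4 and 64.3 at 15 min, and 67.3 and 92.8 at 30 min. Both 5 min values lay above all 6 others. The change was 0.90 ± 0.25 from 0 to 5 min (adjusted p = 0.00241) and −1.01 ± 0.23 from 5 to 15 min (adjusted p = 0.0155). At 15 and 30 min it stood at −0.10 and 0.12 against 0 min, neither called, and with library totals alone these were 0.67 and 1.00 and called. The step from 5 to 15 min was no longer called without culture 1 at 5 min (−0.82, adjusted p = 0.228) or without culture 1 (−1.09) or culture 2 (−0.89) at 15 min. SMARCA1 (SNF2L), its relative, was called at no time (0.93 ± 0.62 at 5 min), with 16.9 and 3.09 scaled CPM at 0 min and 13.0 and 26.1 at 5 min. Its 5 min change was called with library totals alone (1.65) and without culture 1 at 0 min (2.71).

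CHD genes held some of the largest rises. CHD9 stood at 190 and 117 scaled CPM at 0 min, 767 and 731 at 5 min, 752 and 673 at 15 min, and 530 and 646 at 30 min, a change of 2.27 ± 0.21 at 5 min (adjusted p = 5.14e-11). CHD1, which binds the methylated tails of histone H3 at active genes, was named here after its values were seen. It stood at 55.6 in both 0 min cultures, 294 and 319 at 5 min, 210 and 157 at 15 min, and 272 and 226 at 30 min. Both 15 min values lay below those of 5 and 30 min and above those of 0 min. It rose by 2.46 ± 0.22 at 5 min and fell by 0.74 on the log2 scale from 5 to 15 min (adjusted p = 0.0254), a call lost without culture 1 (−0.80) or culture 2 (−0.67) at 5 min or culture 2 at 15 min (−0.51).

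CHD4 and CHD3 are the ATPases of NuRD, a complex that also carries HDAC1 or HDAC2. CHD4 stood at 154 and 139 scaled CPM at 0 min, 122 and 94.0 at 5 min, 72.4 and 82.7 at 15 min, and 109 and 79.3 at 30 min, with the later values below both 0 min values. Its changes were −0.92 ± 0.23 at 15 min (adjusted p = 0.000876) and −0.64 ± 0.22 at 30 min (adjusted p = 0.0146), but with library totals alone these were −0.15 and 0.24 and not called. The 30 min call was also lost without culture 1 at 0 min (−0.54) or culture 2 at 30 min (−0.40). CHD3 was called at no time, with values between −0.30 and 0.00.

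Readers included the gene with the latest rise. BRD2, a BET protein that binds acetylated histones at active genes, stood at 151 and 188 scaled CPM at 0 min, 169 and 134 at 5 min, 195 and 232 at 15 min, and 580 and 440 at 30 min. The 30 min values lay above all 6 others, and the 0 and 5 min values overlapped. BRD2 was higher at 30 min than at 0 min by 1.59 ± 0.20 (adjusted p = 1.75e-08), than at 5 min by 1.77 ± 0.19 (adjusted p = 2.7e-08) and than at 15 min by 1.25 ± 0.18 (adjusted p = 3.64e-05). Its change from 0 to 5 min was −0.17, not called, and 0.56 and called with library totals as the only scaling, as was its change at 15 min (1.12). It was the 1 member called higher from 15 to 30 min, and its promoter is the first of those shown.

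Other readers followed other courses. BRD3, a further BET protein, was called at no time, with 25.4 and 26.3 at 0 min, 8.26 and 17.7 at 5 min, and 37.8 and 21.5 at 30 min. Its 30 min change was called with library totals alone (1.08). BRD9, a subunit of a further SWI/SNF form, rose by 1.48 ± 0.30 at 5 min and 1.99 ± 0.29 at 30 min.

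BRD8, a subunit of the TIP60 acetyltransferase complex, went down. It stood at 144 and 133 scaled CPM at 0 min, 62.5 and 68.5 at 5 min, 60.1 and 72.5 at 15 min, and 60.7 and 39.3 at 30 min. The 6 later values lay below both 0 min values, and the change was −1.07 ± 0.25 (adjusted p = 0.000493), −1.06 ± 0.25 and −1.47 ± 0.25. With library totals alone the first 2 were −0.34 and −0.29 and not called.

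The plot of single genes over time sets these courses side by side.

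**Figure D4:**
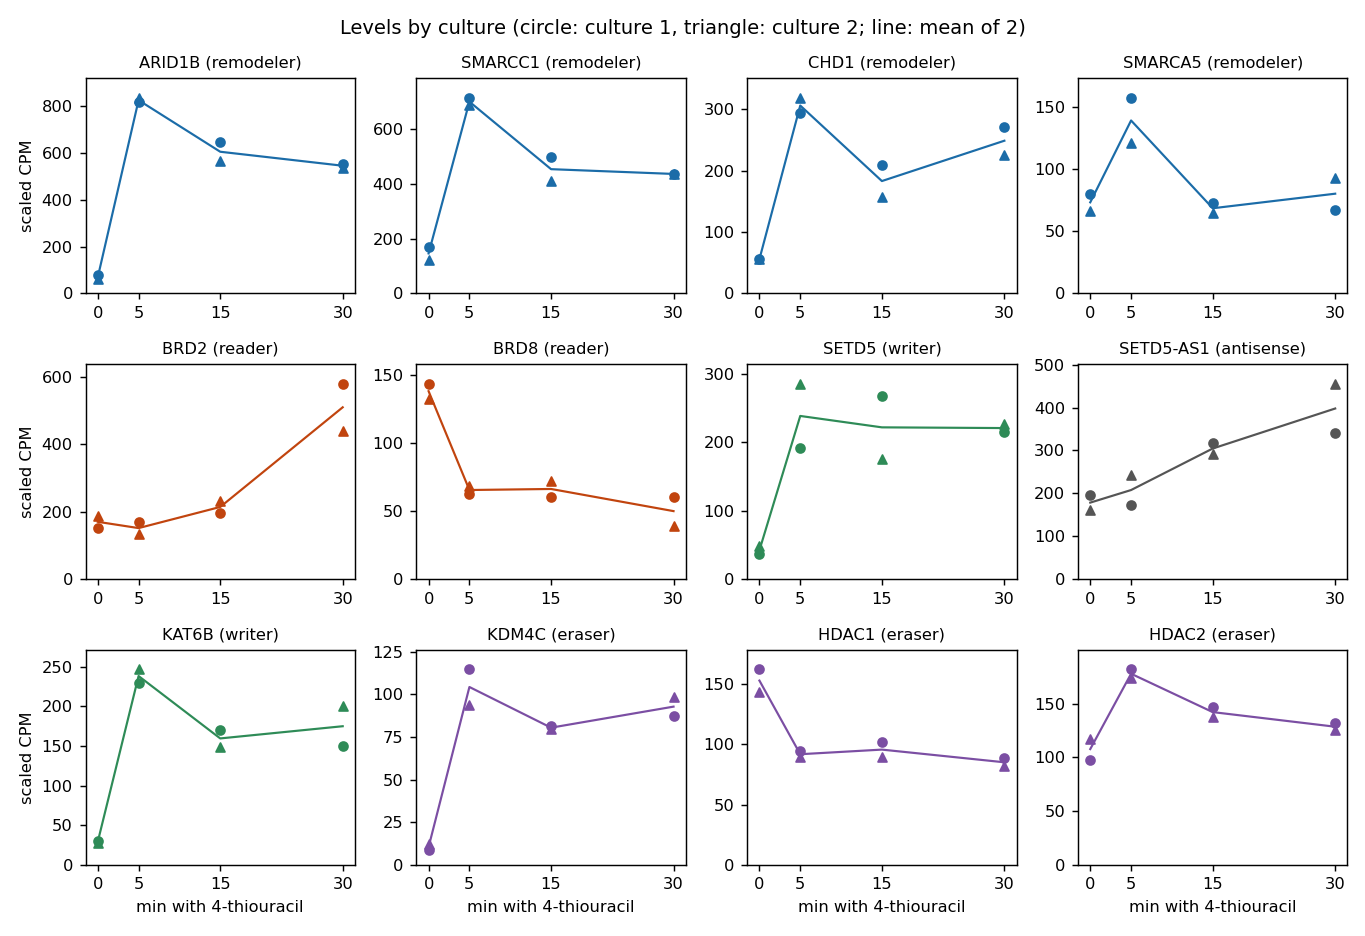
Scaled CPM of 12 genes against min with 4-thiouracil, with culture 1 as circles, culture 2 as triangles and a line through the mean of 2, each axis starting at 0. ARID1B, SMARCC1 and KAT6B are highest at 5 min, BRD2 and SETD5-AS1 at 30 min, SMARCA5 is high at 5 min alone, and BRD8 and HDAC1 are highest at 0 min.

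Among the writers, KAT6B and KAT6A are related acetyltransferases of histone H3. KAT6B stood at 30.2 and 27.8 scaled CPM at 0 min, 230 and 247 at 5 min, 170 and 149 at 15 min, and 150 and 200 at 30 min, with all later values above those of 0 min. It rose by 3.03 ± 0.25 at 5 min (adjusted p = 7.67e-12), 2.45 at 15 min and 2.58 at 30 min. KAT6A differed widely between its 0 min cultures (58.0 and 15.5), stood at 117 and 78.4 at 5 min and at 90.1 and 101 at 30 min, and rose by 1.32 ± 0.33 at 5 min (adjusted p = 0.00105). Its 15 min call (1.24) was lost without culture 2 at 0 min (0.68, adjusted p = 0.0684).

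SETD2 methylates histone H3 along transcribed genes, and SETD1A and SETD1B methylate it near their starts. SETD2 stood at 49.5 and 38.6 scaled CPM at 0 min, 159 and 208 at 5 min, 138 and 116 at 15 min, and 141 and 137 at 30 min, a rise of 2.06 ± 0.24 at 5 min (adjusted p = 9.1e-09). SETD1A stood at 9.67 and 23.2 at 0 min, 35.4 and 42.4 at 5 min, 54.3 and 40.3 at 15 min, and 69.7 and 46.1 at 30 min, and rose by 1.31 ± 0.42, 1.58 ± 0.40 and 1.87 ± 0.39. The first of these was lost without culture 1 at 0 min (0.79) or culture 2 at 5 min (1.18), and the second without culture 1 at 0 min (1.06, adjusted p = 0.0512). SETD1B was called at no time (0.88, 1.19 and 0.96), with 8.46 and 12.4 at 0 min and 17.7 and 19.8 at 5 min. With library totals alone all 3 of its changes were called (1.97 at 15 min and 1.83 at 30 min), and the 15 min change also without culture 1 (1.22) or culture 2 (1.22) at 5 min or culture 2 at 15 min (1.63).

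EHMT1 and EHMT2 act as a pair that methylates histone H3 at silent genes. EHMT1 stood at 6.04 and 3.09 scaled CPM at 0 min, 21.2 and 36.0 at 5 min, 14.9 and 19.8 at 15 min, and 31.2 and 9.84 at 30 min. It rose by 2.61 ± 0.66 at 5 min (adjusted p = 0.00105). Its 15 min change (1.85) lost its call without culture 2 at 0 min (1.53) or culture 2 at 15 min (1.68), and its 30 min change (2.10) without culture 2 at 0 min (1.77) or culture 1 at 30 min (1.07). EHMT2 was called at no time, with values from 0.32 to 0.49, but at all 3 with library totals alone (1.22 at 5 min and 1.31 at 30 min).

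SETD5 was called higher from 5 min and its neighbour SETD5-AS1 from 15 min. SETD5 stood at 36.3 and 47.9 scaled CPM at 0 min, 191 and 285 at 5 min, 268 and 176 at 15 min, and 215 and 226 at 30 min, a rise of 2.53 ± 0.26 at 5 min (adjusted p = 5.82e-10) and of 2.41 at both later times. SETD5-AS1 stood at 196 and 161 at 0 min, 174 and 242 at 5 min, 316 and 293 at 15 min, and 340 and 456 at 30 min. The 0 and 5 min values of SETD5-AS1 overlapped, and all 4 later values lay above them. SETD5-AS1 was called higher at 15 min (0.77 ± 0.20, adjusted p = 0.0015) and 30 min (1.15 ± 0.20, adjusted p = 7.33e-06), and from 5 to 30 min (0.92 ± 0.19, adjusted p = 0.00102, and 0.70 and not called without culture 2 at 30 min). With library totals alone it was called at 5 min too (0.96, adjusted p = 9.52e-05). The ratio of SETD5-AS1 to SETD5 counts was 5.40 and 3.35 at 0 min, 0.907 and 0.847 at 5 min, 1.18 and 1.67 at 15 min, and 1.58 and 2.01 at 30 min. KDM4A-AS1, the other antisense entry, was called at no time (−0.36, 0.53 and 0.05), but with library totals alone at 15 min (1.29).

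Writers by name held 3 of the 6 members that fell at 5 min, 15.0% of the 20 writers, against 26% of all genes tested. SETD3, a SET-domain enzyme known to methylate actin, stood at 62.8 and 74.1 scaled CPM at 0 min, 15.3 and 25.4 at 5 min, 16.8 and 23.9 at 15 min, and 36.0 and 20.3 at 30 min. Its changes were −1.69 ± 0.38 at 5 min (adjusted p = 0.000298), −1.74 at 15 min and −1.27 at 30 min, the last a call lost without culture 2 at 30 min (−0.89) or with library totals alone (−0.39). SETD9 stood at 33.8 and 18.5 at 0 min and 2.36 and 9.19 at 5 min, and fell by 2.05 at 5 min (adjusted p = 0.0109). That call was lost without culture 1 at 0 min (−1.51) or culture 1 at 5 min (−1.49), and the 30 min call (−1.68) without culture 1 at 0 min (−1.13) or culture 1 at 30 min (−1.01). Library totals alone ended both calls (−1.33 at 5 min and −0.81 at 30 min). With 1 library per cDNA the 5 min call was lost (−1.475), and with DESeq2 the 30 min call (−1.80). SETD4, the remaining writer, fell by 0.68.

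Erasers held large rises, and under TMM scaling 2 of the 24 fell at 5 min (8.33%, against 26% of all genes tested). KDM4C, which removes repressive methyl marks from histone H3, stood at 8.46 and 12.4 scaled CPM at 0 min, 114 and 94.0 at 5 min, 81.5 and 79.3 at 15 min, and 87.1 and 98.4 at 30 min. It rose by 3.33 ± 0.35 at 5 min (adjusted p = 8.1e-10), 2.97 at 15 min and 3.17 at 30 min, with no overlap with 0 min. KDM6A (UTX), which removes the Polycomb methyl mark, stood at 10.9 and 6.18 at 0 min, 83.8 and 60.8 at 5 min, 62.1 and 43.8 at 15 min, and 69.7 and 64.5 at 30 min. Its changes were 3.01 ± 0.41, 2.58 ± 0.41 and 2.92 ± 0.40 (adjusted p = 1.14e-07, 2.38e-06 and 1.48e-07). KDM2A, a demethylase that binds unmethylated CpG islands, stood at 36.3 and 26.3 at 0 min and 161 and 219 at 5 min, and rose by 2.59 ± 0.26, 2.57 and 2.44.

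The least counted members give only loose values. KDM8 had 0 counts in both 0 min cultures and 13, 29 and 43 counts in all at 5, 15 and 30 min. Against a floor of 3 counts over both 0 min cultures it was at least 2.82-fold, 4.74-fold and 6.42-fold higher. The edgeR fit, which uses no such floor, gave an adjusted p of 0.0159, 0.00263 and 0.000816. KDM8 met the minimum of 50 counts through the later times alone, so its rise is in part set by that choice. It is among the 35 members called higher at all 3 later times. The 5 min call was lost without culture 1 at 0 min (adjusted p = 0.075) or culture 2 at 5 min (adjusted p = 0.158). HDAC4, a class IIa deacetylase, had 2 counts at 0 min and 16 at 5 min, and was called at no time. The ratio was 5.21 with a 95% counting interval from 1.23 to 46.7. With 67 counts in all, HDAC4 too met the minimum of 50 through the later times. It was called at all 3 with library totals alone, and its 30 min change also without a filter on low counts (adjusted p = 0.0423) or without culture 1 at 0 min (adjusted p = 0.0474). The other class IIa genes HDAC5 and HDAC7 were called at no time, but HDAC5 differed between its 0 min cultures (16.9 and 3.09 scaled CPM), and its 5 min change was called as lower without culture 2 at 0 min (adjusted p = 0.026) or culture 2 at 5 min (adjusted p = 0.0226).

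The class I deacetylases, the catalytic subunits of the main corepressor complexes, split. HDAC1 stood at 162 and 144 scaled CPM at 0 min, 94.4 and 89.0 at 5 min, 102 and 89.6 at 15 min, and 88.3 and 81.8 at 30 min. All later values lay below both 0 min values. The changes of HDAC1 were −0.74 ± 0.22 at 5 min (adjusted p = 0.00415), −0.68 at 15 min and −0.85 at 30 min, but with library totals alone these were −0.01, 0.10 and 0.03. Its 15 min call was lost without culture 1 at 0 min (−0.56) or culture 2 at 15 min (−0.55).

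HDAC2, which joins HDAC1 in the same complexes, stood at 97.9 and 117 at 0 min, 182 and 174 at 5 min, 147 and 137 at 15 min, and 132 and 125 at 30 min. It rose by 0.73 ± 0.21 at 5 min (adjusted p = 0.0031), and was not called at 15 min (0.41) or 30 min (0.26), though both were called with library totals alone (1.19 and 1.14). The ratio of HDAC2 to HDAC1 counts, which no scaling changes, was 0.604 and 0.817 at 0 min and between 1.45 and 1.95 in the 6 later cultures. HDAC3, the deacetylase of the NCoR and SMRT complexes, rose at 5 min (0.70 ± 0.26, adjusted p = 0.0235), a call lost with DESeq2 (0.66, adjusted p = 0.0975) and without culture 1 at 0 min (0.47) or culture 1 at 5 min (0.63). It was not called at 15 or 30 min, but was with library totals alone (1.03 and 1.25). HDAC8, which deacetylates cohesin, stood at 155 and 145 at 0 min, 316 and 336 at 5 min, and 305 and 240 at 30 min, and rose by 1.12 ± 0.19, 0.95 and 0.86.

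KDM5B, a demethylase that acts on the methyl mark of active promoters, fell at each time. It stood at 138 and 158 scaled CPM at 0 min, 101 and 65.7 at 5 min, 59.5 and 67.7 at 15 min, and 54.6 and 59.6 at 30 min, and all later values lay below both 0 min values. Its changes were −0.85 ± 0.24 (adjusted p = 0.00357), −1.21 ± 0.24 and −1.36 ± 0.24. The first lost its call without culture 2 at 5 min (−0.52, adjusted p = 0.152), and with library totals alone the 3 values were −0.11, −0.43 and −0.48 and none was called.

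Of the other ARID genes, ARID4B, a subunit of the Sin3 deacetylase complex, stood at 88.2 and 54.1 scaled CPM at 0 min, 247 and 235 at 5 min, 206 and 196 at 15 min, and 198 and 192 at 30 min, and rose by 1.73 ± 0.22 at 5 min. ARID5B was highest at 15 min, with 49.6 and 66.4 at 0 min, 98.0 and 117 at 5 min, 195 and 169 at 15 min, and 118 and 162 at 30 min. It rose by 0.92 ± 0.25, 1.67 ± 0.24 and 1.29 ± 0.24. ARID3A and ARID3B were called at no time.

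The annotated length of the gene went with the change. Lengths from start to end, introns included, were taken from GENCODE 29 for 84 of the protein-coding members, of which SETD8 had none. The median length was 66.4 kb in the members and 38.5 kb in 9351 protein-coding genes tested. Members that rose at 5 min had a median of 121 kb, those that fell 43.2 kb, and those with neither call 38.8 kb. ARID1B (435 kb) and KDM4C (455 kb) were among the longest, and BRD2 (12.8 kb) among the shortest.

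Across the 84 members the Spearman rho between length and the fitted change was 0.67 at 5 min, 0.61 at 15 min and 0.55 at 30 min, against 0.56, 0.50 and 0.42 across the 9351 genes. From 5 to 30 min rho was −0.40 in the members and −0.28 in all genes. These describe genes that share the same 8 cultures, and genes are not independent replicates. The protein-coding genes tested were cut into 3 equal groups by length, at 22.0 and 65.5 kb. In the longest group 32 of 42 members rose at 5 min (76.19%, against 56.27% of all genes there) and 2 fell (4.76%, against 7.25%). In the middle group 8 of 30 rose (26.67%, against 23.84% of all genes there) and 3 of 30 fell (against 26.21%). In the shortest group 2 of 12 rose (16.67%, against 5.68% of all genes there) and 1 fell (8.33%, against 48.03%). Whether length has a part in the changes was not tested.

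**Figure D5:**
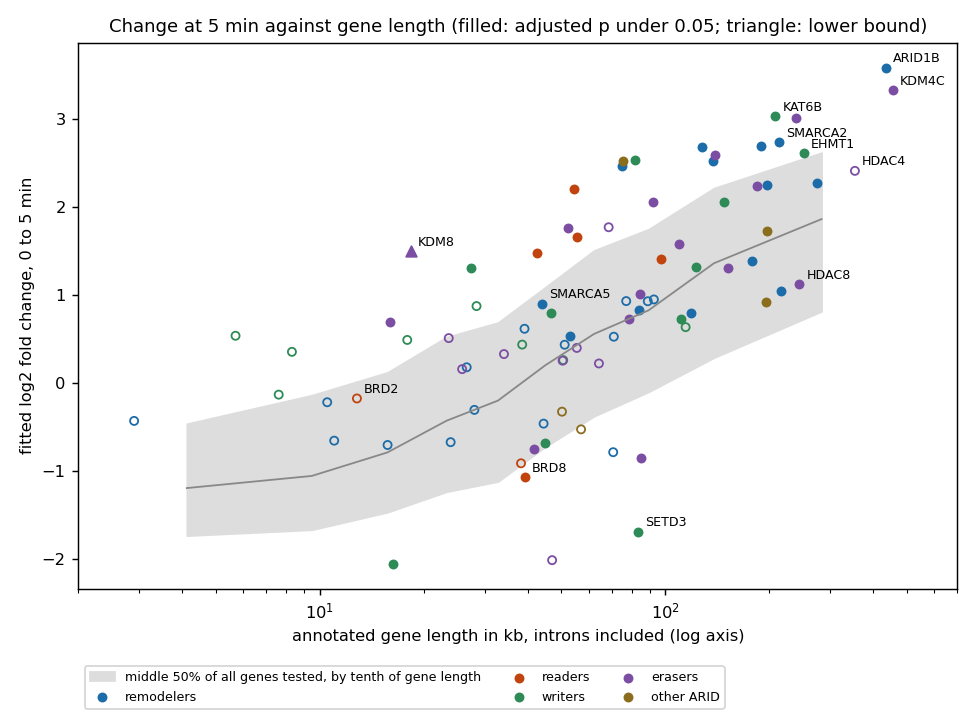
Fitted log2 fold change from 0 to 5 min against annotated gene length in kb (log axis) for 84 members, coloured by class and filled where the adjusted p was under 0.05, with KDM8 as a triangle at its lower bound. The grey band and line give the middle 50% and the median of all protein-coding genes tested in each of 10 groups of equal size by length. The line goes from −1.19 in the shortest group to 1.86 in the longest, KAT6B and SMARCA2 lie above the band, and SETD3 and BRD8 below it.

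Other regulators that work with these proteins but carry other names were counted from a list of 96 genes tested. At 5 min 44 of the 96 rose and 22 fell, with a median of 0.62, at 15 min 38 rose and 24 fell, and at 30 min 44 rose and 23 fell. All genes tested rose in 28.7% and fell in 26% at 5 min, in 29.8% and 24.6% at 15 min, and in 32.1% and 23.8% at 30 min. From 5 to 30 min 4 of the 96 rose and 12 fell, against 5.88% and 6.52% of all genes tested. The share that rose was close to that of the members (45.83% against 48.28% at 5 min), and the share that fell was 22.92%, against 6.90% of the members, a difference that was not tested.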

How the data were processed

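For 32 libraries the authors deposited a single table of counts per gene. The submitters' processing notes name STAR and the build hg19. The STAR version, the annotation, the strand and the kind of count (reads or molecules) are not given in the sources used here. Barcodes linked columns to samples. Libraries were added up per culture (2 cDNA preparations with 2 libraries each), giving 776871 to 1396056 counts in 8 cultures, and libraries held 188686 to 381471.

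Tests between times used edgeR 4.0.16 (R 4.3.3): filterByExpr (10439 genes), TMM scaling, 1 fit over 8 cultures with 4 residual degrees of freedom, the two-sided quasi-likelihood F test and Benjamini-Hochberg adjustment at 0.05. The biological coefficient of variation was 15.3%. DESeq2 1.42.0, other scalings, other filters, a replicate block, fits of 2 times only, 1 library per cDNA and leaving out each culture were tried. The scripts were tested on counts drawn with known differences. Counting intervals are exact and treat each count as independent.

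The members, classes and gene lists were chosen with earlier results of these data known. Genes are named by rule: for each of the 4 main comparisons the 4 largest increases and decreases that passed the test, with a mean of at least 5 CPM and no overlap between cultures, the 2 most counted genes of each class, and sets of related genes (42 genes). Others are named to fill counts of few genes or families, after their values were seen. Promoter sequences and coordinates are of GRCh38.p14 and gene lengths of GENCODE 29, both another build than the counts. The values of 1 reader gene are not reported here, and it is kept in the counts over members.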

Additional observations from a re-analysis of the deposited data

How the results depend on the processing

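With library totals as the only scaling, the number of members lower than at 0 min was 1 at 5, 15 and 30 min, the number higher was 62 at 15 min and 66 at 30 min, and 1 was lower from 5 to 30 min. The same scaling reversed BRD2 at 5 min (0.56), CHD4 at 30 min (0.24), HDAC1 at 15 min (0.10) and 30 min (0.028) and SMARCA5 at 15 min (0.67). It moved the median over all genes to 0.83, 0.96 and 1.22 at 5, 15 and 30 min. With RLE size factors 6 members were lower from 5 to 30 min, and the median over all genes was 0.04, 0.09 and 0.18 at 5, 15 and 30 min.

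Leaving out 1 culture at a time gave 4 to 7 members lower at 30 min, 1 to 3 higher from 5 to 30 min and 0 to 3 lower from 5 to 30 min. For the other counts the range was 36 to 42 higher and 5 to 6 lower at 5 min, 35 to 42 higher and 4 to 6 lower at 15 min, and 38 to 41 higher at 30 min. Replicate numbers were not shown to pair the cultures: the correlation of culture 1's deviations between 2 times lay between −0.03 and 0.08. With the replicate block 44 members were higher and 6 lower at 5 min, 40 and 7 at 30 min, and of 168 results for single genes 1 changed its call, ARID1A at 5 min (0.95, adjusted p = 0.0482).

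Over all alternatives 2648 values of these 168 results were recomputed: 2544 kept the call or its absence (88 of them uncalled values that changed sign), 54 lost the call, 45 gained it and 5 reversed. DESeq2 ended 4 calls among these 168 results. Over all 87 members it called 37 higher and 5 lower at 5 min, against 42 and 6 in the main fit. At 15 min it called 33 and 5, against 39 and 5, and at 30 min 36 and 5, against 40 and 7. The steps of BRD2, SMARCA5 and CHD1 were added to the alternatives after seeing the data. A member with few counts could have changed by an amount that these depths do not show.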

Other observations

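Chromatin regulators outside the name families were called in both directions, and the values below were picked after they were seen, from a list of 96 of which 38 rose and 24 fell at 15 min (29.8% and 24.6% of all genes tested). Of the 32 writers on it, subunits of writer complexes included, 15 were called higher and 7 lower at 15 min. Among the histone methyltransferases, taken by name, KMT2C rose by 2.33 ± 0.22 (SE, log2) at 15 min and KMT2A by 2.21 ± 0.23. Also called higher were KMT2D, KMT2E, ASH1L, NSD1, WHSC1L1, EZH2, PRDM2, SMYD3 and SUV420H1. Fewer of them were called lower: SUV39H1 at −2.16 ± 0.46, SUV39H2 at −1.50 ± 0.27 and SMYD5 at −1.31 ± 0.42. The arginine methyltransferases PRMT1 and PRMT5 were called lower as well, at −2.04 ± 0.27 and −1.51 ± 0.19. Of the paired acetyltransferases CREBBP and EP300, CREBBP rose by 1.72 ± 0.23 and EP300 was not called (0.53). DPY30, a subunit shared by the COMPASS methyltransferases, was called lower at −1.61 ± 0.18.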
